A study of Mus musculus with 10 samples.

Results

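The genes described here are 10 that ventricular muscle uses in fetal life or turns up under load: Nppb, Myh7, Acta1, Tnni1, Ankrd1, Ankrd23, Xirp1, Xirp2, Rcan1 and Fhl1. They were found by symbol among 19938 genes measured on Affymetrix arrays, and all 10 had exactly 1 probe set whose annotation named that gene alone. RNA came from ventricular cardiomyocytes, the contracting cells of the lower heart chambers, and from whole hearts. The groups were cardiomyocytes of VAChT KD mice (3 arrays), cardiomyocytes of WT mice (3 arrays), hearts of VAChT KD mice (2 arrays) and hearts of WT mice (2 arrays). All mice were male, C57BL/6, untreated and 3 months old, and every array held RNA pooled from 2 samples. VAChT is the vesicular acetylcholine transporter that fills the synaptic vesicles of cholinergic nerves, and the series title calls the mice KDHOM; how the knockdown was made is not given in the sources used here. The question was whether this fetal and hypertrophy programme differed between KD and WT mice in either kind of sample.

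In the adult mouse ventricle, the contractile proteins of the fetal heart are largely replaced by adult isoforms, such as Myh6 in place of Myh7 and Tnni3 in place of Tnni1. Pressure or stretch brings part of the fetal set back, together with the hormone gene Nppb and genes of stretch-sensing proteins at the Z-disc, the titin spring and the intercalated disc. These genes serve widely as markers of cardiac hypertrophy. Several are direct targets of transcription factors such as TEAD, GATA4, SRF and MEF2.

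The median intensity of named genes was 6.19 to 6.27 on the log2 scale in cardiomyocyte arrays and 7.54 to 7.59 in heart arrays, so levels were compared between genotypes within 1 kind of sample. The 8 ventricular cardiomyocyte markers averaged 6.95 to 7.04 above the array median in KD cardiomyocytes and 6.96 to 7.03 in WT cardiomyocytes. The 8 fibroblast markers averaged 0.68 to 0.84 above it in KD cells and 0.47 to 1.06 in WT cells. All 8 macrophage markers had lower means in KD cardiomyocytes (median -0.27), and their average ranged from -0.72 to -0.63 in KD cells and from -0.72 to 0.05 in WT cells, with the highest value in WT replicate 3. Their summed log2 intensity was 8.65 to 8.87 in KD cells and 8.68 to 9.64 in WT cells. Of 6 red cell markers 3 were measured, and all 3 had higher means in KD hearts (median 0.55; summed log2 intensity 12.43 to 12.66 in KD and 11.49 to 12.14 in WT). The part of these cells in the results was not tested. KD heart replicate 1 stood apart: 9 of 10 listed thymocyte and T cell markers were measured, and they averaged 2.27 above the array median there, against -0.71 in KD heart replicate 2 and -0.87 and -0.59 in WT hearts. Slc18a3, the VAChT gene, averaged 6.32 ± 0.17 in KD and 6.16 ± 0.19 in WT cardiomyocytes (SD, n = 3 per genotype) and 7.58 ± 0.37 in KD and 7.53 ± 0.27 in WT hearts (SD, n = 2 per genotype). Where its probes lie relative to the altered part of the gene is not given in the sources used here. The labels do not say whether the pools of 1 group came from different animals, so the p-values cover only array-to-array spread, part of which may be technical.

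None of the 10 genes passed an adjusted p of 0.05 between KD and WT mice in cardiomyocytes or in hearts (limma, Benjamini-Hochberg over all genes), where 0 of all 19938 genes passed in either comparison (0%). In cardiomyocytes 6 of the 10 were lower and 4 higher in KD, between -0.47 for Acta1 and 0.20 for Fhl1, with a median of -0.07; the median of all genes was 0. In hearts 7 were lower and 3 higher, between -0.80 for Nppb and 0.16 for Acta1, with a median of -0.13 against 0.01 for all genes. At an unadjusted p under 0.05, limma counted 0 of the 10 in cardiomyocytes, beside 2.1% of all genes, and 1 in hearts, Ankrd23, beside 4.93%. In cardiomyocytes the genotypes overlapped in all 10; of all genes, 2.99% had every KD array above, 3.21% every KD array below, and 6.21% either. In hearts 3 of the 10, Nppb, Ankrd1 and Ankrd23, had every KD array below every WT array, as did 15.4% of all genes. None of the 10 had every KD heart array above, as did 14.2% of all genes, and 29.6% separated in either direction. The heart median was 0.01 without KD heart replicate 1, the array with the thymocyte signal, and -0.26 without KD heart replicate 2; it was -0.05 once the trend of heart differences on intensity was removed. The cardiomyocyte median was 0.003 without KD replicate 1 and -0.03 without KD replicate 3.

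**Figure D1:**
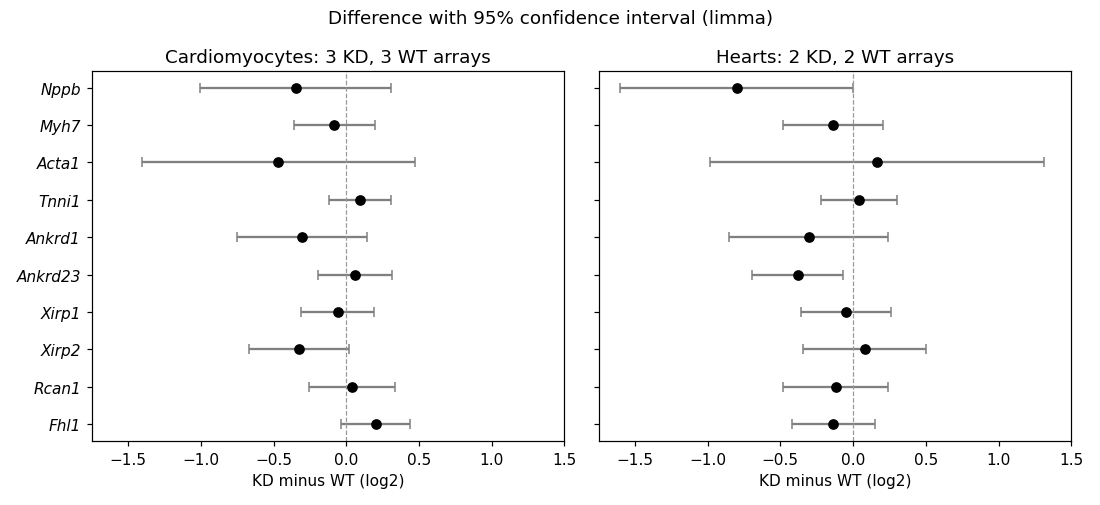
KD minus WT differences of the 10 genes on the log2 scale, with points for the difference and bars for its 95% confidence interval from limma, in cardiomyocytes (left; 3 KD and 3 WT arrays) and hearts (right; 2 KD and 2 WT arrays). Of the 20 intervals only that of Ankrd23 in hearts, -0.69 to -0.07, lies wholly to one side of 0, and no gene passed after adjustment; the interval of Nppb in hearts ends at 0.001.

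Nppb, Acta1 and Ankrd1 were the members that differed most between arrays of 1 group in cardiomyocytes, so the 250 bases before their start sites are shown here, from RefSeq on GRCm38.p6 and read 5′ to 3′ on the gene's strand. Capitals mark matches, on either strand, to the M-CAT element of TEAD factors (CATTCC), the core promoter box TATAAA, the element AGATAA bound by GATA factors and, by name, the CArG box of SRF and the MEF2 site. The windows are chr4:147985650-147985899 (+ strand) for Nppb, chr8:123894776-123895025 (- strand) for Acta1 and chr19:36119845-36120094 (- strand) for Ankrd1. RefSeq's annotated span of Nppb begins inside its window, so another start is annotated there.
Nppb: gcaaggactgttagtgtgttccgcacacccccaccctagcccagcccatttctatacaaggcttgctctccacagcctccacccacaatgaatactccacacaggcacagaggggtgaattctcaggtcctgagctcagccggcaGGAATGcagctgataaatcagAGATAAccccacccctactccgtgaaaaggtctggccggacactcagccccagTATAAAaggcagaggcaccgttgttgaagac
Acta1: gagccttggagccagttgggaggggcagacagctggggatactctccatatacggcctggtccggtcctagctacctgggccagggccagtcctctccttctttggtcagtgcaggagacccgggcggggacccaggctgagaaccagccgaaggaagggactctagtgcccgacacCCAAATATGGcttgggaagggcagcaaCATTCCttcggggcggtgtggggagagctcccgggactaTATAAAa
Ankrd1: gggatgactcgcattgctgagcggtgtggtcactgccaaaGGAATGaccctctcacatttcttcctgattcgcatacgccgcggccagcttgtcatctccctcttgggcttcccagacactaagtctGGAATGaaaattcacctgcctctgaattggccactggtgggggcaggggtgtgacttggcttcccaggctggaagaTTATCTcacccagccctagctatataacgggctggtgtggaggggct
The Nppb window held an M-CAT match on the other strand, an AGATAA match and a TATAAA match. That of Acta1 held a CArG, an M-CAT and a TATAAA match. That of Ankrd1 held a pair of M-CAT matches and an AGATAA match, all on the other strand. No matches overlapped. RefSeq windows were at hand for 9 of the 10 genes, and 5 of these 9 held an M-CAT match in some window: Nppb, Acta1, Ankrd1, Ankrd23 and Myh7. Of the 14 windows of these 9 genes 5 held it, and among all 32851 windows 12.6% did. Genes with several windows have more chances, so counts of genes cannot be set against shares of windows. AGATAA stood in windows of 3 of the 9 genes and in 3 of the 14 windows, against 9.99% of all windows. TATAAA stood in windows of 3 of the 9 genes and in 3 of the 14 windows, against 12.4%. The CArG box stood in windows of Acta1 and Fhl1 (1.47% of all windows) and the MEF2 site in that of Xirp2 (0.508%). A match is only a run of letters and was not tested for binding.

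Nppb (chr4:147985786-147987205 on GRCm38.p6, the build of all positions here) encodes the precursor of B-type natriuretic peptide, a hormone that the stretched heart releases and that lowers blood volume and pressure. In the cardiomyocytes Nppb measured 9.99, 11.04 and 11.22 in KD arrays and 11.31, 10.83 and 11.17 in WT arrays on the log2 intensity scale. KD replicate 1 was the lowest of the 6, and the other KD arrays lay within the WT range. The difference was -0.35 (SE 0.30, 95% confidence interval -1.003 to 0.31; limma adjusted p 1). KD cells averaged 10.75 ± 0.66 and WT cells 11.10 ± 0.25 (SD, n = 3 per genotype). The difference was 0.03 when KD replicate 1 was left out and -0.58 when KD replicate 3 was. In hearts Nppb was 10.04 and 9.08 in KD and 10.65 and 10.07 in WT, so that KD replicate 1 lay just below WT replicate 2 and KD replicate 2 well below every other heart array. KD hearts averaged 9.56 ± 0.68 and WT hearts 10.36 ± 0.41 (SD, n = 2 per genotype). The heart difference was -0.80 (SE 0.37, interval -1.603 to 0.001), a KD level 1.74-fold below WT, with a limma unadjusted p of 0.0503 that did not pass adjustment (adjusted p 1). Without KD heart replicate 1, which held the thymocyte signal, the difference was -1.28 (adjusted p 0.299 from limma), and without KD heart replicate 2 it was -0.32; the single array left is then assumed to vary like the others.

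Nppb is also a gene of atrial muscle, and most atrial markers also had lower means in the same KD hearts. The 8 atrial markers, all measured, averaged 2.19 and 1.56 above the array median in KD hearts and 2.49 and 2.46 in WT hearts; the difference was negative for 7 of the 8 and its median -0.69. Their summed log2 intensity was 12.80 to 13.81 in KD hearts and 13.93 to 14.08 in WT hearts. Nppa, which encodes atrial natriuretic peptide, was 13.002 and 11.69 in KD hearts and 13.24 and 13.04 in WT hearts. KD replicate 2 was the lowest heart array in Nppb, in Nppa and in the atrial average alike. The part of atrial tissue in the Nppb difference was not tested, and in bulk hearts fewer cells of a type and less RNA per cell cannot be told apart. In cardiomyocytes the atrial average was 1.59, 1.01 and 1.23 in KD and 1.72, 1.77 and 0.69 in WT, and KD replicate 1, lowest in Nppb, was not the lowest there.

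Myh7 (chr14:54970684-54994626), the slow beta myosin heavy chain that predominates in the fetal mouse ventricle, was 9.25, 9.15 and 8.87 in KD cardiomyocytes and 9.21, 9.02 and 9.28 in WT cardiomyocytes. In hearts it was 8.96 and 9.25 in KD and 9.14 and 9.34 in WT. The genotypes overlapped in both kinds of sample. The difference was -0.08 (SE 0.13, interval -0.36 to 0.20) in cardiomyocytes and -0.14 (SE 0.16, interval -0.48 to 0.21) in hearts, and both intervals ended at a KD level of 1.15-fold of WT. Without KD heart replicate 1 the heart difference was 0.01.

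Acta1, the skeletal alpha-actin (chr8:123891758-123894775), is made in the fetal ventricle, and again under load, beside the cardiac actin Actc1. In cardiomyocytes it was 9.46, 9.98 and 11.58 in KD and 11.60, 10.43 and 10.39 in WT. KD replicate 3 and WT replicate 1 were nearly equal and over 1 log2 unit above the other 4 arrays, so the 2 highest values belonged to different genotypes. The range over the 6 arrays was 2.14 on the log2 scale, or 4.42-fold, and 4.35-fold among the KD arrays alone. The difference was -0.47 (SE 0.43, interval -1.40 to 0.47). It was -1.09 without KD replicate 3 and -0.03 without KD replicate 1, and with array weights it turned to 0.02. In hearts Acta1 was 10.41 and 10.40 in KD and 10.45 and 10.04 in WT, a difference of 0.16 (SE 0.53, interval -0.99 to 1.31), which overlapped. That wide interval carries the spread of the cardiomyocyte arrays, which share the fit; with the hearts fitted alone the SE was 0.17. The skeletal muscle markers, 10 of 10 measured, averaged 0.26 above the array median in KD replicate 3 and 0.21 in WT replicate 1. Over the 6 cardiomyocyte arrays that average ranged from 0.15 to 0.34. Their summed log2 intensity was 13.04 in KD replicate 3 and 13.01 in WT replicate 1, the 2 highest of these arrays, and 12.75 in the lowest, WT replicate 3. The part of these markers in the Acta1 values was not tested.

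Tnni1 (chr1:135783033-135810989), the slow skeletal troponin I of the fetal heart, was 6.11, 6.11 and 6.05 in KD cardiomyocytes and 5.96, 5.96 and 6.07 in WT cardiomyocytes. In hearts it was 6.96 and 7.14 in KD and 6.91 and 7.11 in WT. These levels lay below the array medians, at -0.13 relative to them in KD and -0.22 in WT cardiomyocytes and at -0.52 in KD and -0.53 in WT hearts, and no detection calls were at hand to show whether Tnni1 RNA exceeded background. The difference was 0.09 (SE 0.10) in cardiomyocytes and 0.04 (SE 0.12) in hearts.

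**Figure D2:**
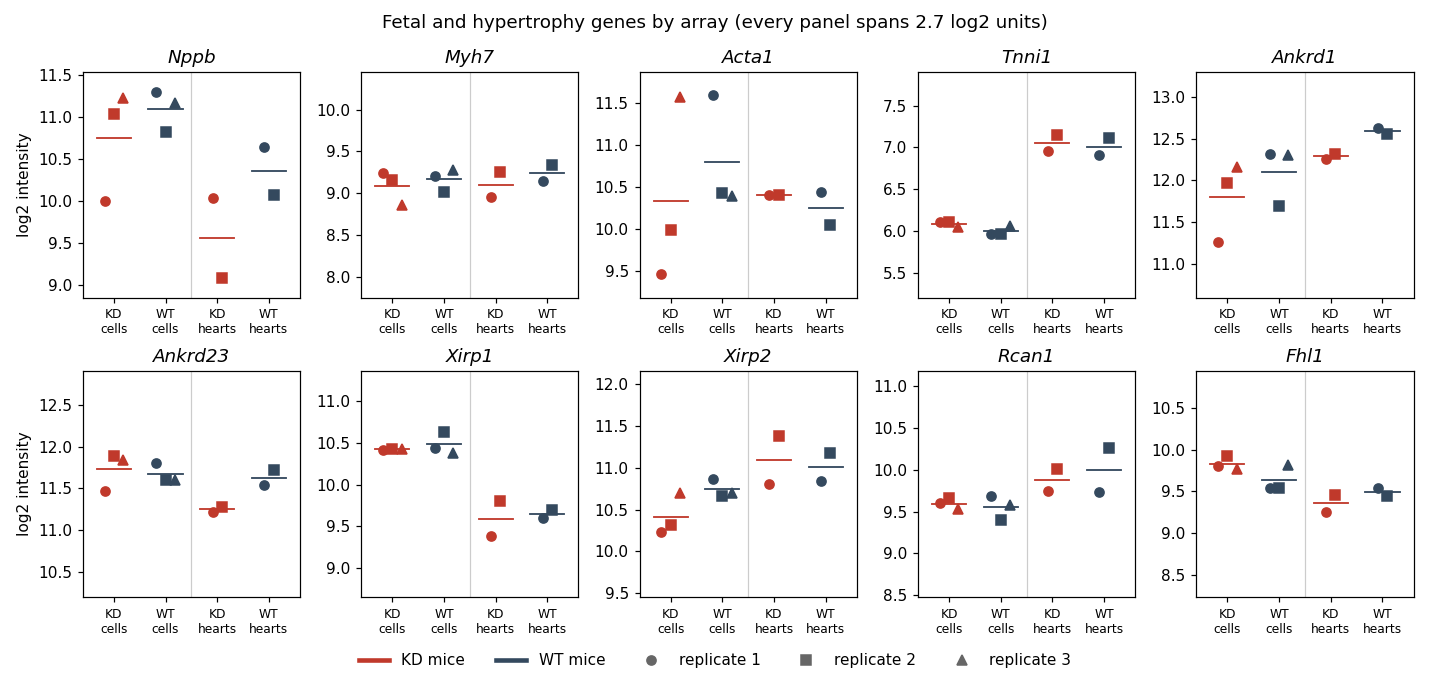
Log2 intensity of the 10 genes on every array, in KD cells, WT cells, KD hearts and WT hearts; each point is an array, its shape the replicate number, and lines are group means. Acta1 spreads from 9.46 to 11.60 in cardiomyocytes, Tnni1 only from 5.96 to 6.11, and the heart arrays of Ankrd23 fall into 11.22 and 11.28 in KD and 11.54 and 11.72 in WT.

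Each fetal isoform was also set against its adult partner within the same array, in 3 pairs and 2 kinds of sample. The levels of different probe sets cannot be compared, so only the change of this difference between genotypes is informative. Myh7 minus Myh6 averaged -4.20 ± 0.16 in KD and -4.16 ± 0.16 in WT cardiomyocytes (SD, n = 3 per genotype), and -4.15 ± 0.01 in KD and -4.08 ± 0.15 in WT hearts (SD, n = 2 per genotype). Acta1 minus Actc1 was -4.45, -3.92 and -2.34 in KD and -2.25, -3.47 and -3.59 in WT cardiomyocytes, while Actc1 stayed within 13.85 to 13.98. In hearts it was -4.14 and -4.18 in KD and -4.14 and -4.54 in WT. Tnni1 minus Tnni3 averaged -7.65 ± 0.05 in KD and -7.69 ± 0.09 in WT cardiomyocytes (SD, n = 3 per genotype), and -5.52 ± 0.06 in KD and -5.64 ± 0.14 in WT hearts (SD, n = 2 per genotype). The KD minus WT changes lay between -0.47 for Acta1 minus Actc1 in cardiomyocytes and 0.18 for the same pair in hearts. Exact two-sided permutation p-values were 0.5 to 1 over the 6 tests, 0.84 or 1 after Benjamini-Hochberg adjustment; 3 arrays against 3 cannot give a p below 0.1, nor 2 against 2 one below 0.333. Myh6 and Myh7, and the actins, are near-identical paralogs, so their probe sets may share signal.

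**Figure D3:**
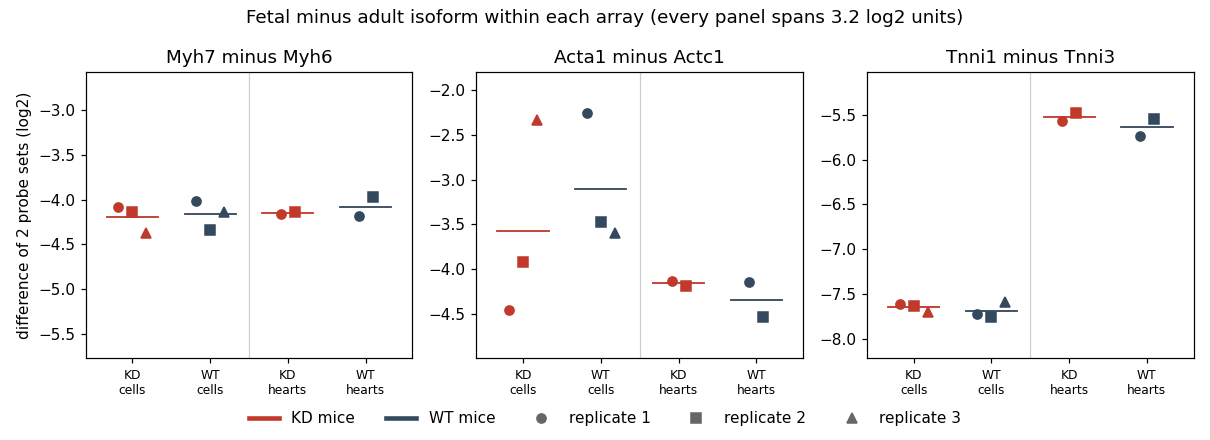
Fetal minus adult isoform, the difference of 2 probe sets within each array on the log2 scale, in KD cells, WT cells, KD hearts and WT hearts; points are arrays and lines group means. KD and WT arrays overlap in the 3 pairs of cardiomyocytes, and Acta1 minus Actc1 ranges there from -4.45 to -2.25.

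Ankrd1 (chr19:36111965-36119844) and Ankrd23 (chr1:36530193-36536556) encode muscle ankyrin repeat proteins, which bind the elastic part of titin and also enter the nucleus; Ankrd1 is strongly induced by stretch. Ankrd1 was 11.27, 11.97 and 12.17 in KD cardiomyocytes and 12.31, 11.70 and 12.30 in WT cardiomyocytes. KD replicate 1 was again the lowest array, and the groups overlapped. The difference was -0.30 (SE 0.21, interval -0.75 to 0.14), and -0.04 without KD replicate 1. In hearts Ankrd1 was 12.26 and 12.31 in KD and 12.63 and 12.56 in WT, and the KD arrays were the lower pair, with little spread within each genotype. The heart difference was -0.31 (SE 0.25, interval -0.85 to 0.24; limma adjusted p 1), and its unadjusted p 0.247. With the hearts fitted alone by limma, without the wider cardiomyocyte spread, the SE was 0.13, the unadjusted p 0.0526 and the adjusted p still 1. Leaving out any 1 heart array kept the difference between -0.34 and -0.27, while quantile normalization of the heart arrays brought it to -0.16.

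Ankrd23 was 11.47, 11.88 and 11.83 in KD cardiomyocytes and 11.80, 11.60 and 11.60 in WT cardiomyocytes, with overlapping groups and a difference of 0.06 (SE 0.12, interval -0.20 to 0.32). In hearts it was 11.22 and 11.28 in KD and 11.54 and 11.72 in WT, with both KD arrays lower. KD hearts averaged 11.25 ± 0.04 and WT hearts 11.63 ± 0.13 (SD, n = 2 per genotype). The heart difference was -0.38 (SE 0.14, interval -0.69 to -0.07). Its unadjusted p of 0.0211 was the smallest of the 10 genes in hearts, and its limma adjusted p over all genes was 0.95. The heart difference stayed between -0.47 and -0.29 with any 1 heart array left out, and was -0.26 with quantile normalization. The test of the KD effect in cardiomyocytes minus that in hearts gave 0.44 (SE 0.19, interval 0.04 to 0.85; limma unadjusted p 0.0352, adjusted p 0.999). Over all genes 3.49% had an unadjusted p under 0.05 in that test, and 1 of the 10 did. In the same hearts all 8 ventricular cardiomyocyte markers had lower means in KD (median -0.11; summed log2 intensity 16.34 to 16.41 in KD and 16.46 to 16.53 in WT). So had 8 of 8 fibroblast markers (median -0.29), 8 of 8 endothelial markers (median -0.21) and 6 of 7 smooth muscle markers (median -0.14). Higher means in KD were found for 6 of 8 macrophage markers (median 0.05) and 9 of 10 skeletal muscle markers (median 0.08). Of all genes 47.4% had lower means in KD hearts, and the marker counts were made without removing the intensity trend. The part of these markers in the Ankrd genes' heart differences was not tested.

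Xirp1 (chr9:120013755-120023598) and Xirp2 (chr2:67446000-67526620) encode the Xin actin-binding repeat proteins, which sit at the intercalated discs that join cardiac muscle cells end to end. Xirp1 was 10.41, 10.42 and 10.43 in KD cardiomyocytes and 10.44, 10.63 and 10.38 in WT cardiomyocytes. The KD arrays were nearly equal and lay within the WT range, and the difference was -0.06 (SE 0.12). In hearts Xirp1 was 9.39 and 9.80 in KD and 9.59 and 9.69 in WT, so the KD arrays lay on either side of the WT arrays; the difference was -0.05 (SE 0.14) and turned to 0.15 without KD heart replicate 1. Xirp2 was 10.24, 10.32 and 10.69 in KD cardiomyocytes and 10.86, 10.66 and 10.70 in WT cardiomyocytes. KD replicates 1 and 2 lay below all WT arrays and KD replicate 3 among them. The Xirp2 difference was -0.32 (SE 0.16, interval -0.67 to 0.02), with the smallest unadjusted p of the 10 genes in cardiomyocytes, 0.0637, and a limma adjusted p of 1. With the cardiomyocytes fitted alone by limma its SE was 0.12, its unadjusted p 0.0229 and its adjusted p 1. It measured -0.46 with KD replicate 3 left out and -0.24 with KD replicate 1 left out. In hearts Xirp2 was 10.80 and 11.37 in KD and 10.84 and 11.17 in WT, a difference of 0.08 (SE 0.20) that was 0.37 without KD replicate 1 and -0.21 without KD replicate 2.

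Rcan1 (chr16:92391951-92466169) encodes a regulator that binds and restrains calcineurin. Calcineurin and NFAT can drive its transcription, so it has been used as a readout of that hypertrophy pathway. RefSeq annotates more than 1 start for it, and which transcripts the probe set measures is not given in the sources used here. Rcan1 was 9.60, 9.66 and 9.53 in KD cardiomyocytes and 9.68, 9.41 and 9.58 in WT cardiomyocytes, a difference of 0.04 (SE 0.14, interval -0.26 to 0.34). In hearts it was 9.74 and 10.01 in KD and 9.74 and 10.26 in WT, a difference of -0.12 (SE 0.17, interval -0.48 to 0.24). The genotypes overlapped in both kinds of sample.

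Fhl1 (chrX:56731209-56793346) encodes a LIM-domain protein of the sarcomere that takes part in the response to stretch. It was 9.81, 9.92 and 9.77 in KD cardiomyocytes and 9.55, 9.54 and 9.81 in WT cardiomyocytes. WT replicate 3 lay among the KD arrays, and the other WT arrays lay below all of them. The difference was 0.20 (SE 0.11, interval -0.03 to 0.44; limma unadjusted p 0.0873, adjusted p 1), the highest of the 10. In hearts Fhl1 was 9.26 and 9.46 in KD and 9.54 and 9.45 in WT, which overlapped, a difference of -0.13 (SE 0.13, interval -0.42 to 0.15). The KD effect in cardiomyocytes minus that in hearts was 0.34 (SE 0.17, interval -0.04 to 0.71; limma adjusted p 0.999).

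The members differed in how closely arrays of 1 genotype repeated. In cardiomyocytes the SD within groups was 0.92 for Acta1, 0.50 for Nppb and 0.42 for Ankrd1, larger than in 99.9%, 99.6% and 99.2% of all genes, whose median was 0.13. Xirp1 and Tnni1 varied little, with 0.09 and 0.05, above only 22.9% and 3.75% of genes. Tnni1 lay below the array medians, where RMA compresses differences, and no detection calls were at hand for it. In hearts Nppb again varied much, with 0.56 (98.8% of genes below it), whereas Acta1 with 0.20 and Ankrd1 with 0.05 did not stand at that end. KD cardiomyocyte replicate 1 was the lowest of the 6 arrays in 5 members, Nppb, Acta1, Ankrd1, Ankrd23 and Xirp2; it was the lowest in 18.6% of all genes. WT cardiomyocyte replicate 1 was the highest in 5 members, Nppb, Acta1, Ankrd1, Xirp2 and Rcan1, against 15.7% of all genes. Among the hearts, KD replicate 1, in which thymocyte genes were high, was the lowest of the 4 arrays in 6 members, Myh7, Ankrd1, Ankrd23, Xirp1, Xirp2 and Fhl1, and in 34.1% of all genes. Without it the heart difference was -0.28 for Ankrd1 and -0.35 for Ankrd23. Relative to the mean of the 6 arrays, KD replicate 1 lay at -0.93 in Nppb, -1.12 in Acta1 and -0.69 in Ankrd1, and WT replicate 1 at 0.38, 1.03 and 0.36.

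**Figure D4:**
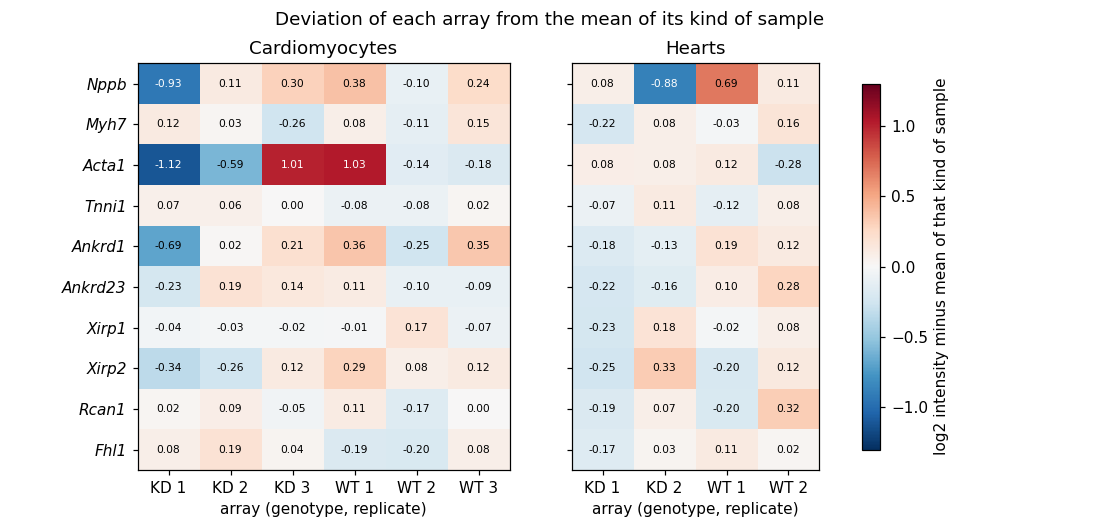
Deviation of each array's log2 intensity from the mean of the 6 cardiomyocyte arrays (left) or of the 4 heart arrays (right), with red above and blue below that mean; rows are the 10 genes and columns the arrays. In cardiomyocytes the column of KD 1 is blue in Nppb, Acta1, Ankrd1, Ankrd23 and Xirp2, down to -1.12 in Acta1, while Myh7, Tnni1, Xirp1, Rcan1 and Fhl1 stay near 0 there; in hearts Nppb is at -0.88 in KD 2.

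Over the 6 cardiomyocyte arrays, Pearson's r was 0.96 between Nppb and Ankrd1, 0.86 between Acta1 and Xirp2, 0.78 between Nppb and Acta1, and 0.74 between Acta1 and Ankrd1. Tnni1 and Fhl1 had an r of 0.95, and Tnni1 and Xirp2 an r of -0.81. Tnni1 lay below the array medians, and its values on these 6 arrays spanned only 0.15 on the log2 scale. Over all 10 arrays, centred within each kind of sample, the r of Nppb and Ankrd1 was 0.79 and that of Nppb and Xirp2 0.02. On that measure the r of Acta1 was 0.60 with Xirp2, 0.53 with Nppb and 0.68 with Ankrd1. That of Tnni1 was 0.54 with Fhl1 and 0.12 with Xirp2. These are descriptions of a few arrays that share their normalization. The same measure over 10 arrays was used to find, among the brighter named genes, the gene most like each member. For Nppb this was Ppp1r3c (r 0.94), which directs protein phosphatase to glycogen, for Myh7 Hus1 (0.93), a DNA damage checkpoint gene, and for Acta1 Tmem176a (0.89). For Tnni1 it was Ptch1 (0.94), the Hedgehog receptor, for Ankrd1 Fam43a (0.92), and for Ankrd23 Abra (0.94). For Xirp1 it was Bcar1 (0.94), an adaptor protein of cell adhesions, for Xirp2 Samd5 (0.95), for Rcan1 Stmn2 (0.92) and for Fhl1 Sft2d3 (0.90). The highest of 9484 candidates was taken each time, which by itself favours high values. Acta1 and Tmem176a had an r of 0.90 over the 6 cardiomyocyte arrays but only 0.15 over the heart arrays.

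Whether a member stood higher in cardiomyocytes or in hearts depended on the scale. Relative to the array median, which was lower in cardiomyocytes, all 10 were higher in cardiomyocytes in both genotypes. On the deposited log2 scale 5 of the 10, Myh7, Tnni1, Ankrd1, Xirp2 and Rcan1, were higher in hearts in both genotypes. Ankrd1, for example, lay 5.58 above the array median in KD and 5.89 in WT cardiomyocytes, against 4.72 in KD and 5.05 in WT hearts, while its intensity averaged 11.80 in KD and 12.11 in WT cardiomyocytes, against 12.29 in KD and 12.59 in WT hearts. Nppb was higher in cardiomyocytes on both scales, with 10.75 in KD and 11.10 in WT cardiomyocytes, against 9.56 in KD and 10.36 in WT hearts as deposited. The labels name different labelling manuals for these kinds of sample, so kind of sample and labelling cannot be told apart, and no test was made across them.

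The neighbours of the 10 genes in their pathways were read from 6 lists, and none of their members passed in either direction in either kind of sample after adjustment over all genes. Of 11 adult sarcomere genes, 5 were lower and 6 higher in KD cardiomyocytes (median 0.002), and 11 of 11 were lower in KD hearts (median -0.15). Mybpc3, the thick filament's myosin-binding protein, differed there by -0.26 (SE 0.11) and Tpm1, a tropomyosin, by -0.22 (SE 0.10), while Myh6 differed by -0.06 (SE 0.11). Of 14 other fetal and hypertrophy genes, 6 were lower and 8 higher in KD cardiomyocytes (median 0.01), and 11 lower and 3 higher in KD hearts (median -0.26). Of all genes 50% were lower in KD cardiomyocytes and 47.4% in KD hearts. The heart counts of these lists were made without removing the trend of heart differences on intensity. At an unadjusted p under 0.05 limma counted 1 of the 14 in each kind of sample. Of all genes it counted 2.1% in cardiomyocytes and 4.93% in hearts. That gene was Ccn2 both times, which encodes a matrix-associated growth factor of injured and stretched tissue, and its signs were opposite. Ccn2 averaged 11.18 ± 0.25 in KD and 10.68 ± 0.06 in WT cardiomyocytes (SD, n = 3 per genotype), with every KD array higher, a difference of 0.50 (SE 0.12; limma unadjusted p 0.000987, adjusted p 1). In hearts it averaged 10.62 ± 0.06 in KD and 10.98 ± 0.08 in WT (SD, n = 2 per genotype), with every KD array lower, a difference of -0.35 (SE 0.14; limma unadjusted p 0.0308, adjusted p 0.95). Every KD array was higher in cardiomyocytes in 2.99% of all genes, and every KD array lower in hearts in 15.4%. Acta2, the smooth muscle actin, was 10.94 ± 0.30 in KD and 10.52 ± 0.52 in WT cardiomyocytes (SD, n = 3 per genotype). Edn1, which encodes the growth-promoting peptide endothelin, differed by -0.33 (SE 0.18) in hearts.

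Of 8 genes that process or bind natriuretic peptides, 6 were lower and 2 higher in each kind of sample, with a median of -0.01 in cardiomyocytes and -0.19 in hearts. Npr3, the receptor that clears these peptides, was 9.64 ± 0.22 in KD and 10.08 ± 0.09 in WT hearts (SD, n = 2 per genotype; difference -0.43, SE 0.17), and Npr2 differed by -0.37 (SE 0.12). Corin, the protease that cuts the atrial peptide's precursor, differed by -0.26 (SE 0.16) in hearts and 0.03 (SE 0.13) in cardiomyocytes. Of 20 Z-disc and stretch partners, 11 were lower and 9 higher in each kind of sample, with medians of -0.01 in cardiomyocytes and -0.03 in hearts. Fhl2, a relative of Fhl1, was 12.57 ± 0.03 in KD and 12.80 ± 0.08 in WT hearts (SD, n = 2 per genotype), and differed by 0.01 (SE 0.09) in cardiomyocytes. Lmcd1, a LIM protein that represses GATA factors, differed by -0.22 (SE 0.11) in cardiomyocytes, and Csrp3, the muscle LIM protein of the Z-disc, by 0.08 (SE 0.08).

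Of 12 calcineurin and NFAT genes, 7 were lower and 5 higher in KD cardiomyocytes (median -0.04) and 5 lower and 7 higher in KD hearts (median 0.03). Nfatc3, which is also a T cell factor, was 9.24 ± 0.72 in KD and 8.52 ± 0.06 in WT hearts (SD, n = 2 per genotype), a range of 8.73 to 9.74 in KD and 8.48 to 8.56 in WT. The thymocyte markers also had higher means in KD hearts, 9 of 9 (median 1.31), but their average was high only in KD replicate 1. It was 2.27 above the array median there and -0.71 in KD replicate 2, against -0.87 and -0.59 in WT hearts. The part of these markers was not tested. Ppp3ca, a catalytic subunit of calcineurin, differed by -0.17 (SE 0.13) in cardiomyocytes and -0.19 (SE 0.16) in hearts. Of 23 regulators of the fetal programme, 14 were lower and 9 higher in KD cardiomyocytes (median -0.01) and 17 lower and 6 higher in KD hearts (median -0.03). Hopx, a cofactor that restrains SRF, was 8.90 ± 0.02 in KD and 9.31 ± 0.21 in WT hearts (SD, n = 2 per genotype; difference -0.40, SE 0.13; limma adjusted p 0.95), with both KD arrays lower. Mrtfa, a coactivator of SRF, was 7.61 ± 0.01 in KD and 7.36 ± 0.08 in WT hearts (SD, n = 2 per genotype; difference 0.25, SE 0.11; limma adjusted p 0.998), with both KD arrays higher, and differed by -0.15 (SE 0.09) in cardiomyocytes. At an unadjusted p under 0.05 limma counted these 2 of the 23 in hearts, beside 4.93% of all genes. Both KD heart arrays were lower in 15.4% of all genes and higher in 14.2%. Klf15, a repressor of cardiac growth, differed by 0.30 (SE 0.14) in cardiomyocytes, Tead1 by -0.07 (SE 0.11) there and by -0.22 (SE 0.13) in hearts, and Gata4 by -0.15 (SE 0.10) and -0.08 (SE 0.13) in the same order.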

How the data were processed

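RNA on 10 arrays was measured as log2 intensity for 35556 probe sets. The deposited log2 values came from RMA and Partek, per the submitters' processing notes, which name no version or setting used here. RMA subtracts background, equalises the arrays' distributions and combines probes, and it compresses differences of dim genes. Whether all arrays were normalized together is not stated. Of the probe sets, 21789 had exactly 1 symbol in the platform annotation, and the brightest was kept for each of 19938 genes; 1621 with several symbols and 12146 with no listed gene were left out. The few arrays limit precision: the median 95% interval reached 0.25 to either side in cardiomyocytes and 0.31 in hearts.

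One model with 4 group means was fitted over the 10 arrays in limma 3.58.1 (R 4.3.3; lmFit, eBayes with an intensity trend), with two-sided tests and Benjamini-Hochberg adjusted p-values at 0.05. Isoform differences had exact permutation tests (scipy 1.17.1). Simulated data had 19938 genes, independent noise of limma's fitted spread and 200 changed genes. On them limma recovered 74.4% of 1.5-fold and 99.2% of 2-fold changes for cardiomyocytes, and 40.2% and 98% for hearts. The simulation held no shift shared by the genes of an array. Its changed genes were drawn from all genes, so the shares do not give the recovery for widely varying members such as Acta1 and Nppb. The 10 members, 6 pathway lists and 9 marker lists were chosen with earlier results of these data known. The text names the members, their adult isoforms, Slc18a3, Nppa, the gene most like each member (among named genes brighter than the median), and genes from the 4 of each pathway list with the smallest p in either comparison. Alternatives were other scalings, leaving out dim genes, averaging probe sets, other limma settings, the replicate number as a block and leaving out each array.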

Additional observations from a re-analysis of the deposited data

Results flagged for a closer look

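Fhl1 differed in direction between the kinds of sample: all 3 KD cardiomyocyte arrays lay above the WT cardiomyocyte mean, and both KD heart arrays lay below the WT heart mean. The test of that difference, the KD effect in cardiomyocytes minus that in hearts, gave 0.34 on the log2 scale (SE 0.17; limma adjusted p 0.999) and did not pass.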

How the results depend on the processing

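No result of the 10 genes crossed the threshold under any alternative run. Of 587 values 548 kept their direction and 39 turned. Many of these values could not turn. Averaging probe sets, leaving out dim genes, several limma settings and the replicate block leave a member's difference as it was. So does leaving out an array of the other kind of sample, for a KD minus WT difference. Besides leaving out arrays, the sign turned for Acta1 in cardiomyocytes (0.020 with array weights), for Tnni1 in hearts (-0.0083 with quantile normalization within each kind of sample) and for Xirp1 in hearts (0.0042 with it, 0.019 with the loess trend on intensity removed). For the KD effect in cardiomyocytes minus that in hearts it turned for Ankrd1 (-0.17 with quantile normalization, -0.15 with the loess trend removed), Xirp1 (0.018 with centring on medians) and Myh7 (-0.014 with array weights, -0.0026 with the loess trend removed). Tnni1 minus Tnni3 in hearts was -0.072 with quantile normalization. The causes were not tested. Leaving out dim genes drops Tnni1, so it has no value there.

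Replicate numbers were not taken to pair the arrays. Deviations of same-numbered cardiomyocyte arrays correlated at 0.15, 0.13 and -0.05, and those of differently numbered ones at -0.19 to 0.07. In hearts the values were 0.23 and -0.23, which mirror each other by construction with 2 arrays per group. These values do not decide whether the numbers mark pairs. With the replicate number as a block, limma called 1 gene in hearts, Clec1b (no member, and named after its value was seen), and 0 in cardiomyocytes; every KD minus WT difference is the same by construction.

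With each array left out in turn, cardiomyocyte differences ranged from -0.58 to 0.032 for Nppb, -0.16 to 0.030 for Myh7, -0.018 to 0.19 for Ankrd23, -0.11 to 0.013 for Xirp1 and -0.036 to 0.10 for Rcan1. Heart differences ranged from -0.28 to 0.0097 for Myh7, -0.040 to 0.36 for Acta1, -0.056 to 0.14 for Tnni1, -0.26 to 0.15 for Xirp1, -0.21 to 0.37 for Xirp2 and -0.38 to 0.14 for Rcan1, and the heart median from -0.26 to 0.011. The effect in cardiomyocytes minus that in hearts ranged from -0.027 to 0.93 for Nppb, -0.091 to 0.20 for Myh7, -0.048 to 0.15 for Tnni1, -0.20 to 0.27 for Ankrd1, -0.21 to 0.20 for Xirp1 and -0.10 to 0.42 for Rcan1. The number of all genes called in hearts ranged from 0 to 303, with 303 when KD heart replicate 2 was left out, so that the array with the thymocyte signal stood alone, 2 without WT replicate 1 and 1 without KD replicate 1. For the difference between kinds of sample it ranged from 0 to 237, with 237 without KD heart replicate 2 and 2 without WT heart replicate 1. Where 1 array of a genotype remains, its spread is taken from the other groups.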
